A study of Sus scrofa with 23 samples.

Results

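The genes described here encode lysosomal enzymes, lysosomal membrane proteins and TFEB, a transcription factor that drives many of them. They were taken by symbol from a list of 38, and 37 of the 38 were found among the 26687 gene symbols to which the deposited transcripts belong. NAGLU was not analysed here. All 37 passed the filter on low counts, with between 242 (MANBA) and 49978 (CTSB) estimated counts per library. By role they comprised 11 proteases, 9 glycosidases, 4 sulfatases, 7 proteins of lipid handling, 4 membrane proteins, and GRN and TFEB.

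The samples were pieces of kidney cortex from 23 newborn pigs, read by RNA-Seq of total RNA without ribosomal RNA. Their labels give CFTR-/- to 11 libraries (CF), CFTR+/- to 6 (HET) and wild type to 6 (WT). No agent was given, and all pigs had the same age label. Each library came from another pig, and the labels name neither sex nor litter. The study's methods compare CF with non-CF pigs, so the HET and WT libraries also form a control group of 12 non-CF libraries in which heterozygous and intact genotypes are mixed. The study's text adds that the piglets came from matings of CFTR+/- pigs. In bulk tissue, fewer cells of a type and less RNA per cell cannot be told apart.

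The lysosome is an acidic compartment in which proteins, glycans and lipids taken up from outside or delivered by autophagy are broken down. Most of its soluble enzymes are made in the endoplasmic reticulum, tagged with mannose 6-phosphate in the Golgi and sorted from it to the lysosome, and its membrane carries heavily glycosylated LAMP proteins and transporters that export the products. In the kidney the proximal tubule is rich in lysosomes, since it degrades proteins reabsorbed from the filtrate. TFEB enters the nucleus when mTORC1 is inactive at the lysosome and binds E-box motifs in promoters of lysosomal genes.

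Libraries held between 32901281 and 52952273 estimated counts, and the medians were 42709608 (WT), 47476461 (HET) and 43636298 (CF). A floor of 3 counts corresponded to 0.0567 to 0.0912 CPM (counts scaled by library size), and covers counting error only. RNA of CFTR, the disrupted gene, was lowest in the libraries labelled WT and highest in those labelled CF. Its mean CPM and SD were 2.26 ± 0.784 in 6 WT, 12.6 ± 2.78 in 6 HET and 19.9 ± 3.19 in 11 CF libraries. The cause of this order was not tested, so a group below means libraries that carry its label, whatever their genotype. The second axis of a multidimensional scaling split the libraries into a set A of 13 (6 CF, 3 HET, 4 WT) and a set B of 10 (5 CF, 3 HET, 2 WT), and the split followed the pig numbers. The first axis followed RNA of the Y-linked EIF1AY, which exceeded 1 CPM in 2 of 6 WT, 5 of 6 HET and 6 of 11 CF libraries. Of 9 proximal tubule markers, 9 exceeded 1 TPM (a level per transcript length, scaled to a constant sum) in each library, as did 4 of 4 podocyte markers.

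The promoter windows show where the motif read by TFEB occurs. Each window ran from 250 bases before to 50 bases after the annotated gene start in the RefSeq annotation of Sscrofa11.1. The 6-letter motif CACGTG, a palindrome and so the same on both strands, was in 11 of 37 member windows (29.7%) and in 7.64% of the windows of 20653 protein-coding genes. The extended motif TCACGTGA, which contains the shorter one, was in 4 member windows (10.8%) and in 1.08% of all. The 11 were HEXA, LAMP1, LAMP2, CTSA, CTSF, NEU1, TPP1, GALNS, GUSB, IDUA and SGSH. HEXA, LAMP1, NEU1 and GALNS held the extended form. Shown are these 4 and the genes with the smallest p for CF against WT, LAMP2 and CTSF. The windows of all genes were not matched to the members in base composition, and no relation of the motif to fold changes was tested. Capitals mark the motif, each stretch is read on the strand of the gene, and a match in these letters is no evidence of binding.
HEXA: gccgtctctggTCACGTGAcccgccaattg
HEXA: tgaccatggcgTCACGTGActcggccagct
LAMP1: gcagcgcggccTCACGTGAcgggcgccgcc
NEU1: gtgctgaagggTCACGTGAggagttacgcg
GALNS: cgccggccgcgTCACGTGAcgacgccggtc
LAMP2: tctggcccccttCACGTGcggagattggct
CTSF: gccggcgcgcccCACGTGcctcacgtaaac

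In Sscrofa11.1 these stretches lie upstream of the gene starts, and distances run from the first base of CACGTG, also where it lies inside the extended motif, to the start. Those of HEXA are at chr7:60878428-60878457 and chr7:60878478-60878507 on the plus strand, with CACGTG 91 and 41 bases before the start. The stretch of LAMP1 is at chr11:78600658-78600687 (plus, 148 bases), that of NEU1 at chr7:23958673-23958702 (minus, 31 bases) and that of GALNS at chr6:869194-869223 (plus, 78 bases). LAMP2 has its stretch at chrX:98623967-98623996 (minus, 45 bases) and CTSF at chr2:5855016-5855045 (plus, 55 bases). LAMP1 and GALNS held further CACGTG matches in their windows.

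The members were present at very different levels. In TPM, CTSB, a cysteine protease of broad specificity, had the highest mean, 471 (343 to 611 over the 23 libraries), followed by CTSD, the main aspartic protease, at 216 (159 to 329). PSAP, the precursor of the saposins that help glycosphingolipids to be degraded, had 202 (168 to 235), CTSC, which activates other proteases by removing dipeptides, 158 (115 to 201), and CTSH, an aminopeptidase, 147 (94.0 to 190). The lowest were MANBA, a beta-mannosidase, with 3.47 TPM (2.21 to 4.94), NPC1, the cholesterol exporter of the membrane, with 5.71 (4.62 to 6.78), and ARSA, which removes sulfate from sulfatide, with 7.11 (5.14 to 8.85). Between neighbours in this order, the higher gene was higher in 23 of 23 libraries only for CTSB over CTSD, PSAP over CTSC, CTSF over MAN2B1 and NPC1 over MANBA. For the other 32 pairs at least 1 library had the reverse order.

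**Figure D1:**
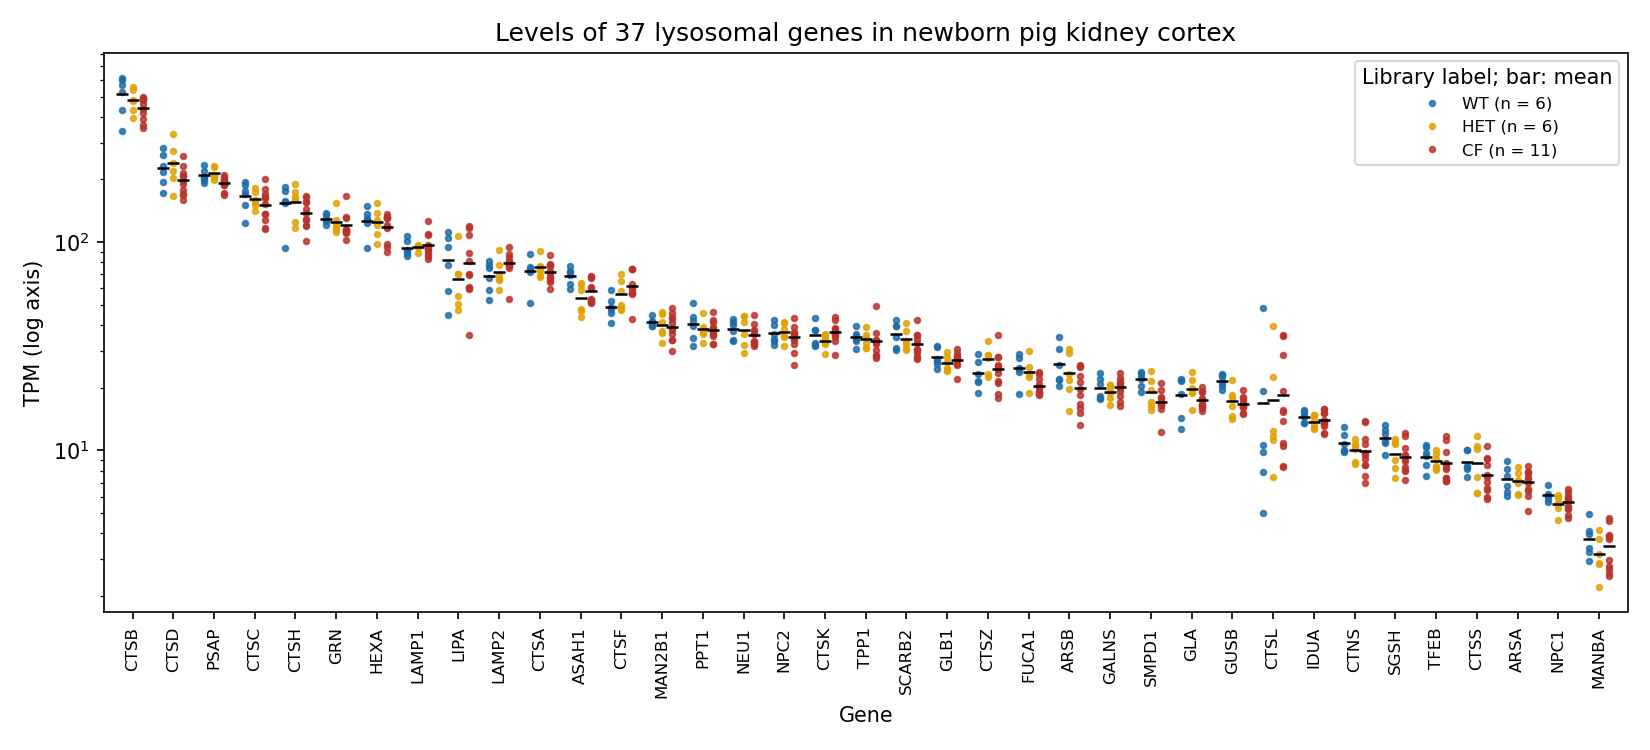
TPM (log axis) of the 37 lysosomal genes, in order of their mean over all libraries. Each point is 1 library, coloured by label, and bars are label means. CTSB stands highest with a mean of 471 TPM and MANBA lowest with 3.47, and CTSL spreads from 4.99 to 48.5.

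The 11 proteases held 51.9% of the members' TPM, the 7 lipid proteins 18.4%, the 9 glycosidases 12.7%, the 4 membrane proteins 9.0% and the 4 sulfatases 2.49%. The members' summed level was 2498 ± 280 TPM (SD, n = 6) in the libraries labelled WT, 2433 ± 148 (SD, n = 6) in HET and 2305 ± 134 (SD, n = 11) in CF. These ranges overlapped, from 1992 to 2737, 2223 to 2590 and 2046 to 2473 TPM. On average the 10 genes with the highest TPM, none of them a member, took 58.8% of each library's TPM. With those left out, the sums were 5806, 5964 and 5725 for WT, HET and CF, so that WT was no longer the highest.

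The question the study puts to these libraries is which genes differ by CFTR genotype. For CF against non-CF, the quasi-likelihood test of edgeR, with p-values adjusted over all genes by Benjamini and Hochberg, called 0 of 37 members at an adjusted p under 0.05, with 0.349% of all 20921 genes called. At an unadjusted p under 0.05 there were 5 of 37 (3 higher, 2 lower in the libraries labelled CF), or 13.5%, against 13.7% of all genes. The members' median log2 fold change was -0.04, with 11 higher and 26 lower, against a median of 0.00 and a split of 10411 higher and 10510 lower over all genes. The split was 21 higher and 16 lower in library set A alone, with a median of 0.01, and 12 higher and 25 lower in set B alone, with a median of -0.09. For 34 members the 95% interval lay between -0.5 and 0.5 in log2 fold change, and for 37 between -1 and 1. By role, 3 of 11 proteases, 3 of 9 glycosidases, 2 of 4 sulfatases, 1 of 7 lipid proteins and 2 of 4 membrane proteins had a value above 0.

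LAMP2, a membrane glycoprotein needed for autophagosome fusion and chaperone-mediated autophagy, had the smallest p of the members. It is gene 100154598 on chromosome X, from 98586718 to 98623939. Its lowest, median and highest CPM were 97.6, 111 and 128 in the libraries labelled WT, 119, 131 and 148.5 in HET, and 114, 147.5 and 172.5 in CF. The groups overlapped, although in CPM 9 of 11 CF libraries lay above every WT library and 5 of 11 above every non-CF library. In TPM the mean and SD were 68.9 ± 11.4 in WT, 71.9 ± 11.6 in HET and 79.0 ± 10.3 in CF. In that unit only CF pigs 6, 8 and 11 lay above every WT library, and only CF pig 8 above every non-CF library. The log2 fold change of LAMP2 was 0.24 for CF against non-CF (SE 0.0750, p = 0.00358, adjusted p = 0.130 by edgeR). In CPM, 10 of 11 CF libraries were above the median of the non-CF libraries. The log2 fold change was 0.31 in set A and 0.16 in set B, and the adjusted p over the alternatives lay between 0.0691 and 0.437.

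FUCA1, the alpha-fucosidase that removes fucose from glycoproteins (gene 100621112, chromosome 6 from 81638213 to 81655993), lay lower in the libraries labelled CF. It had a lowest, median and highest CPM of 30.2, 37.7 and 42.5 in WT, 33.1, 38.5 and 44.7 in HET, and 26.1, 33.2 and 41.1 in CF. The ranges overlapped, with 10 of 11 CF libraries under the non-CF median. The log2 fold change was -0.22 (SE 0.0765, p = 0.00737, adjusted p = 0.173 by edgeR). In set A it was -0.09 and in set B -0.38.

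CTSK, a collagen-degrading cysteine protease best known from osteoclasts, varied least of all members over the libraries, with a coefficient of variation of 8.06% of CPM. It had 44.6, 51.9 and 59.4 CPM (lowest, median, highest) in WT, 47.4, 51.8 and 56.6 in HET, and 49.3, 56.7 and 61.6 in CF, so the ranges overlapped, although 10 of 11 CF libraries lay above the non-CF median, 6 above every HET library and 3 above every non-CF library. The log2 fold change for CF against non-CF was 0.12 (SE 0.0487, p = 0.0191, adjusted p = 0.247 by edgeR), and it was 0.13 in each set.

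CTSF, another cysteine protease, had 66.3, 79.0 and 95.9 CPM in WT, 85.8, 102.5 and 125.5 in HET, and 85.7, 109 and 144 in CF. Its log2 fold change was 0.23 (SE 0.1000, p = 0.0269, adjusted p = 0.287 by edgeR). ARSB, the sulfatase of dermatan sulfate, had 106, 125 and 161 CPM in WT, 85.8, 129 and 160 in HET, and 65.8, 104 and 157 in CF, with a log2 fold change of -0.26 (SE 0.125, p = 0.0448, adjusted p = 0.351 by edgeR). For ARSB the difference was -0.43 in set A and -0.09 in set B. Both genes had overlapping groups.

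**Figure D2:**
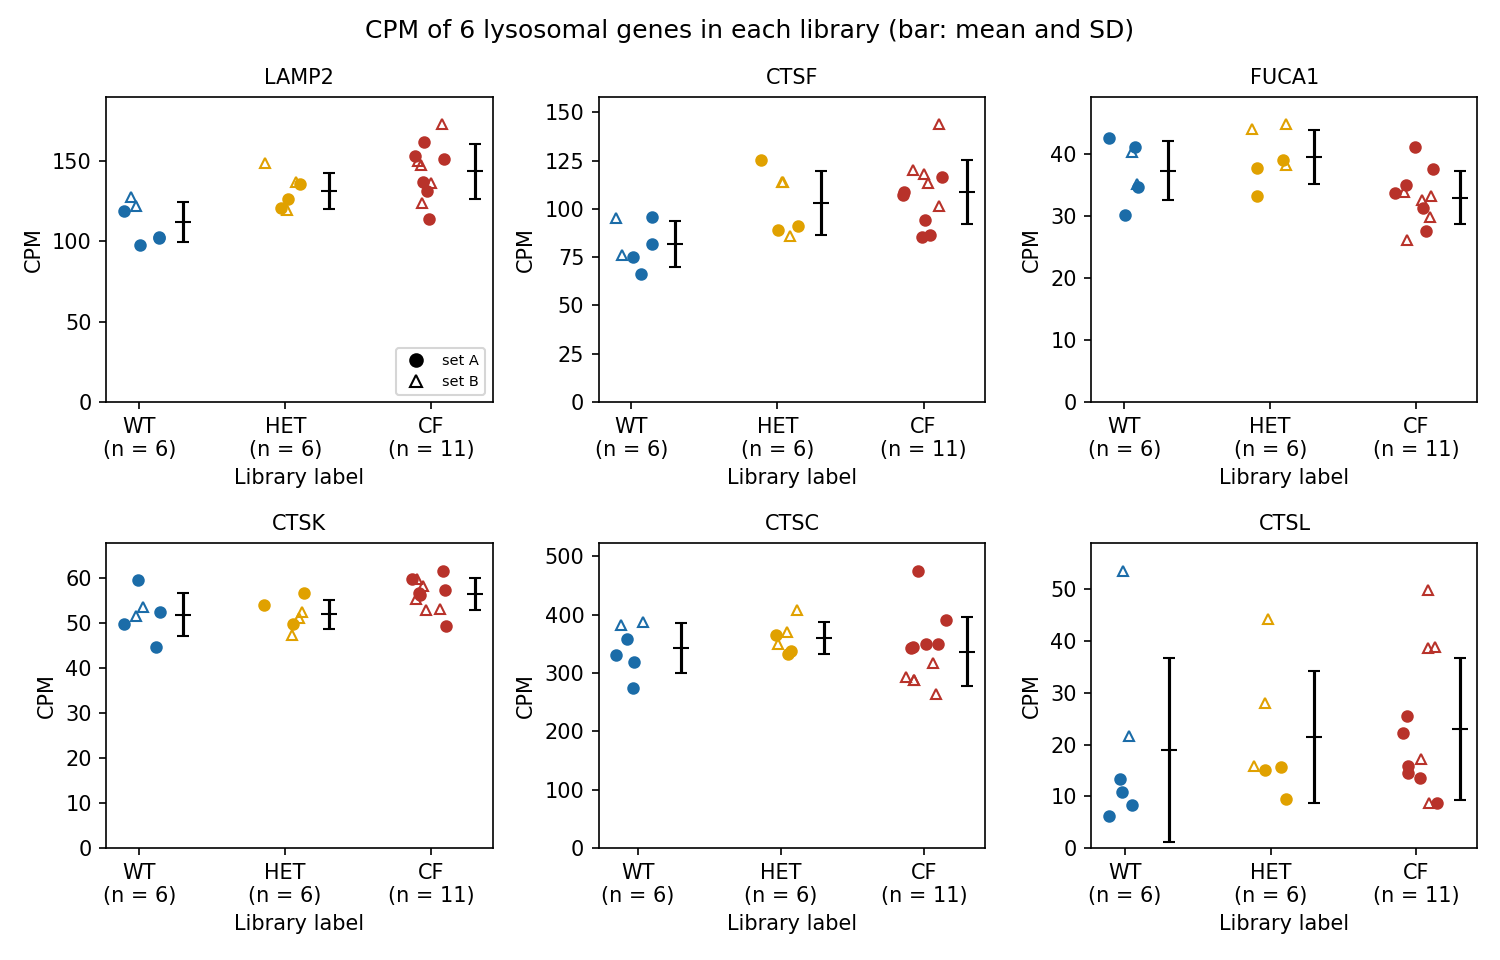
CPM of 6 lysosomal genes in each library by label, with filled circles for set A, open triangles for set B, and the mean and SD beside each group. LAMP2 and CTSF lie higher and FUCA1 lower in the CF libraries with overlap, the 5 CF libraries of set B lie lowest for CTSC in that set, and 1 WT library stands at 53.55 CPM of CTSL.

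With the labels kept apart, CF against WT also called 0 of 37 members, with 0.336% of all 21434 genes called. At an unadjusted p under 0.05 there were 3 of 37 (LAMP2, CTSF and GUSB), or 8.11%, against 14% of all genes. The signs were 20 higher and 17 lower, with a median log2 fold change of 0.00, where all genes were 10678 higher and 10756 lower. The split is not stable, since upper-quartile scaling gave 14 higher and 23 lower, as did adding the Y-linked RNA as a term, which was chosen after the data were seen. LAMP2 had a log2 fold change of 0.36 (SE 0.0850, p = 2.72e-04, adjusted p = 0.0579 by edgeR), higher than the WT median in 11 of 11 libraries. It came under 0.05 in some alternatives: 0.00616 with DESeq2, 0.0364 with a filter of 1 CPM, 0.0412 with the library set as a term and 0.0392 with upper-quartile scaling. Leaving out CF pig 4 (0.0246), CF pig 10 (0.0457) or WT pig 23 (0.0415) had the same outcome, and the other pigs left it above 0.05, up to 0.138. With the Y-linked term it was 0.0754.

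CTSF had a log2 fold change of 0.41 for CF against WT (SE 0.111, p = 0.00102, adjusted p = 0.0824 by edgeR), higher than the WT median in 11 of 11 libraries and above every WT library in 8. Only DESeq2 took it under 0.05 (0.0180), and its adjusted p ranged up to 0.198. GUSB, the beta-glucuronidase of glycosaminoglycans, had 30.9, 35.2 and 40.8 CPM in WT, 25.5, 29.4 and 42.1 in HET, and 24.1, 28.0 and 39.5 in CF, and 7 of 11 CF libraries lay below every WT library. Its log2 fold change was -0.27 (SE 0.109, p = 0.0222, adjusted p = 0.263 by edgeR).

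The RNA of LAMP2 was the sum of transcripts of 2685 and 1417 bases, the only pair that the table assigns to it. The longer one made up 42.1 ± 4.50% of the LAMP2 TPM in WT, 45.7 ± 4.68% in HET and 48.5 ± 4.67% in CF (SD, n = 6, 6 and 11), with ranges from 37.1 to 50.5, 40.3 to 53.1 and 41.5 to 55.9%. The shares overlapped and were not tested. As LAMP2 is X-linked, its CPM is also given by EIF1AY. In libraries with over 1 CPM of EIF1AY it was 97.6 and 118.5 in the 2 WT libraries and 114 to 172.5 in the 6 CF libraries. In the others it was 102 to 128 in 4 WT and 124 to 151 in 5 CF libraries. GLA, the X-linked alpha-galactosidase, had a log2 fold change of 0.24 for HET against WT, with 22.8 CPM in the 5 HET libraries with over 1 CPM of EIF1AY and 21.9 in the other.

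HET against WT called 0 of 37 members, with 0.00467% of all genes called (CFTR alone). At an unadjusted p under 0.05 there were 3 of 37, or 8.11%, against 8% of all genes. Although no member passed, the signs were unequal, with 29 higher and 8 lower in HET and a median log2 fold change of 0.08, against 0.00 over all genes. All 11 proteases and all 4 membrane proteins had a value above 0 in HET, from 0.00 (CTSK) to 0.36 (CTSZ). These signs come from counts and depend on the unit. By mean TPM, CTSB, CTSC, CTSK, CTSS, TPP1, SCARB2 and CTNS were lower in HET than in WT. The other proteases and membrane proteins were higher. The proteases summed to 1302 ± 206 TPM (SD) in WT and 1288 ± 90.1 (SD) in HET. With the genes of highest TPM left out, the sum over all members was higher in HET (5964) than in WT (5806). With the Y-linked RNA as a term in edgeR, the members split into 22 higher and 15 lower with a median of 0.04. This comparison was not fitted within the library sets. In set A the mean CPM of CTSB was 788 in WT and 890 in HET (n = 4 and 3), in set B 907 and 859 (n = 2 and 3). CTSD had 369 and 502 in set A, and 425 and 401.5 in set B. CTSF was higher in HET in both sets (79.8 and 102 in set A, 85.75 and 104 in set B). CTSF had a log2 fold change of 0.34 (SE 0.124, adjusted p = 0.548 by edgeR), LAMP2 0.23 (SE 0.0955, adjusted p = 0.589 by edgeR) and CTSZ, a carboxypeptidase, 0.36 (SE 0.173, adjusted p = 0.624 by edgeR). CTSZ had 21.1, 26.0 and 33.7 CPM in WT, 28.5, 33.4 and 45.2 in HET and 18.7, 29.3 and 49.6 in CF, so that the CF libraries covered the range of both other labels.

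CF against HET called 0 of 37 members, with 0% of all genes called. An unadjusted p under 0.05 was found for 3 of 37 (8.11%) and for 9.83% of all genes, and all 3 were lower in CF. FUCA1 had a log2 fold change of -0.26 (SE 0.0929, p = 0.00915, adjusted p = 0.365 by edgeR). PSAP had 381, 417 and 529 CPM in WT, 382, 496 and 554 in HET and 364, 425 and 487 in CF, with a log2 fold change of -0.22 (SE 0.0901, adjusted p = 0.440 by edgeR). CTSS, the cysteine protease of antigen presentation, had 25.7, 31.9 and 34.4 CPM in WT, 24.2, 34.1 and 43.9 in HET and 24.1, 28.15 and 33.7 in CF, with a log2 fold change of -0.24 (SE 0.110, adjusted p = 0.469 by edgeR). The members overall were 11 higher and 26 lower in CF, with a median of -0.08, where all genes were 11013 higher and 10421 lower with a median of 0.01. CF against WT and HET against WT share their WT libraries, CF against WT and CF against HET their CF libraries, and HET against WT and CF against HET their HET libraries.

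**Figure D3:**
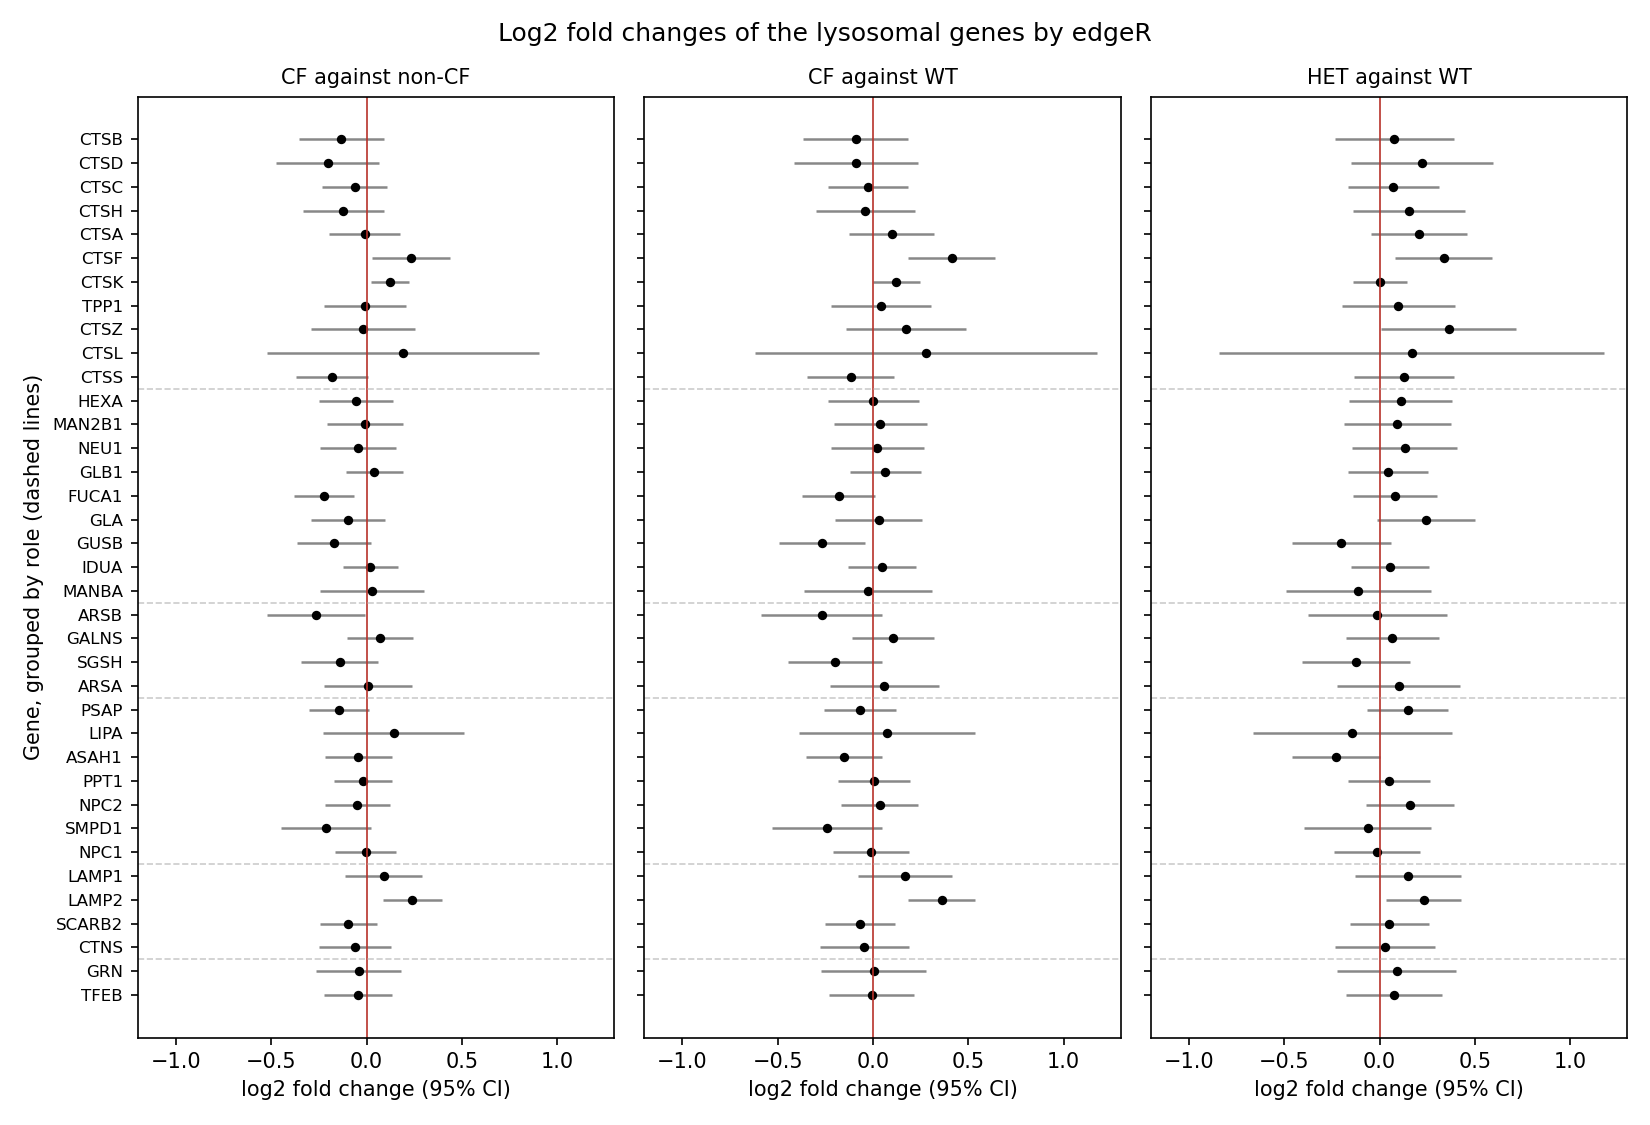
Log2 fold changes with 95% confidence intervals from edgeR for the 37 genes, grouped by role in the order proteases, glycosidases, sulfatases, lipid proteins, membrane proteins, and GRN with TFEB. LAMP2 and CTSF reach 0.36 and 0.41 for CF against WT, and in HET against WT all 11 proteases lie above 0. By mean TPM, CTSB, CTSC, CTSK, CTSS and TPP1 were lower in HET than in WT.

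LAMP1, the companion of LAMP2 in the membrane, had 134, 156 and 169 CPM in WT, 150, 172 and 183 in HET and 129, 167 and 254 in CF, and a log2 fold change of 0.09 for CF against non-CF (SE 0.0984, adjusted p = 0.750 by edgeR). The highest library was thus a CF library, but the CF range also reached below every WT library. TFEB had 13.99, 17.9 and 22.3 CPM in WT, 17.04, 18.4 and 21.2 in HET and 12.8, 17.6 and 22.9 in CF. Its log2 fold change for CF against non-CF was -0.05 (SE 0.0871, adjusted p = 0.881 by edgeR), with a 95% interval from -0.22 to 0.13. CTSB had 599, 907 and 953 CPM in WT, 723.5, 841 and 1070 in HET and 589.8, 711 and 995 in CF. CTSH had 118, 188 and 205 CPM in WT, 159, 207 and 239 in HET and 139, 165 and 233 in CF. The groups overlapped for both genes. Among the most abundant members the log2 fold change for CF against non-CF was -0.13 for CTSB (SE 0.108), -0.20 for CTSD (SE 0.132), -0.14 for PSAP (SE 0.0764), -0.06 for CTSC (SE 0.0831) and -0.12 for CTSH (SE 0.1035), with adjusted p between 0.415 (PSAP) and 0.812 (CTSC) by edgeR. For CTSB the value was -0.01 in set A and -0.28 in set B. GRN, the precursor of the lysosomal granulins, had -0.04 (SE 0.108) over all libraries. The lowest members were also close to 0 (MANBA 0.03, NPC1 -0.01, ARSA 0.01), and their signs changed on leaving out single libraries. MANBA had 7.94, 10.4 and 14.7 CPM in WT, 6.65, 9.52 and 13.2 in HET and 6.95, 10.5 and 14.25 in CF. NPC1 had 20.7, 23.05 and 26.2 CPM in WT, 20.6, 23.5 and 24.75 in HET and 18.5, 22.1 and 30.15 in CF. ARSA had 9.37, 11.8 and 15.85 CPM in WT, 10.8, 11.9 and 15.9 in HET and 9.39, 12.3 and 16.5 in CF. The libraries of the labels lay over each other for all 3.

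The members that varied most over the 23 libraries were CTSL (coefficient of variation 65.0% of CPM), LIPA (32.3%) and CTSD (24.0%). CTSL, a cysteine protease (gene 100515919, chromosome 10 from 27668523 to 27674705), had 6.18, 12.2 and 53.55 CPM in WT, 9.41, 15.8 and 44.1 in HET and 8.73, 17.2 and 49.8 in CF. The value of 53.55 CPM came from WT pig 22, and the next highest WT library had 21.6. In set A the CTSL CPM lay between 6.18 and 25.4 and in set B between 8.80 and 53.55. Its log2 fold change for CF against non-CF was 0.19 (SE 0.347), and its 95% interval, from -0.52 to 0.90, was the widest of the 37. Leaving out single libraries moved it from 0.01 (without CF pig 9) to 0.42 (without WT pig 22), and by over 1.5 times also without CF pigs 7 or 11, WT pigs 12 or 18, or HET pigs 13 or 19. In set A the log2 fold change was 0.57 (SE 0.242, p = 0.0308, adjusted p = 0.471 by edgeR) and in set B -0.08 (SE 0.416), and the difference between the sets was -0.66 (SE 0.509, adjusted p = 0.705 by edgeR). CTSL shares 44 of its 1388 stretches of 31 bases (3.17%) with CTSV (gene 396926), from 25202360 to 25208058 on the same chromosome, which had 546 to 1784 CPM. CTSL was only 1.02% to 4.85% of CTSV, so its estimates are uncertain where reads are split between the pair. The names are those of the deposited table, and which of the 2 genes corresponds to cathepsin L of other species was not examined, so the CTSL values are those of gene 100515919 alone.

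LIPA, the acid lipase that frees cholesterol and fatty acids from lipoproteins, had 103, 170 and 218 CPM in WT, 100.5, 146 and 214 in HET and 80.3, 164 and 287 in CF. Its log2 fold change for CF against non-CF was 0.14 (SE 0.180, adjusted p = 0.795 by edgeR), from 0.04 without CF pig 9 or CF pig 1 to 0.22 without CF pig 5. CTSD had 315, 361 and 495.5 CPM in WT, 275, 444 and 619 in HET and 247, 361 and 506 in CF. The groups overlapped for both genes.

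Since every label occurs in both library sets, the CF effect was also fitted within each. In set A alone, edgeR called 0 of 37 members, with 0% of all genes called, and 3 of 37 (8.11%) had an unadjusted p under 0.05, against 9.31% of all genes. In set B alone it called 2 of 37 (5.41%), CTSC and SCARB2, with 2.27% of all genes called, and 7 of 37 (18.9%) had an unadjusted p under 0.05, against 17.4% of all genes. For the test of a difference in the CF effect between sets, 0 of 37 members had an adjusted p under 0.05, with 0.0187% of all genes called. At an unadjusted p under 0.05 there were 3 of 37 (8.11%), against 10.1% of all genes. These 3 were CTSC, SCARB2 and CTSS, and SCARB2, like GLA and GRN, lies outside the rule for named genes and was chosen after its values were seen. The sign of the log2 fold change differed from that over all libraries for 14 of 37 members in set A and for 5 in set B. CTSC had 275, 345 and 388 CPM (lowest, median, highest) in WT, 332, 357 and 408 in HET and 264.5, 344 and 475.5 in CF, and a log2 fold change of -0.06 for CF against non-CF over all libraries (SE 0.0831, adjusted p = 0.812 by edgeR). Between set B and set A it had a difference of -0.58 (SE 0.122, p = 7.92e-05, adjusted p = 0.0679 by edgeR). Its CPM lay between 275 and 365 in the 7 non-CF libraries of set A and between 344 and 475.5 in the 6 CF libraries, which overlapped, and the log2 fold change was 0.19. In set B it lay between 350 and 408 in 5 non-CF and between 264.5 and 318 in 5 CF libraries, without overlap, with a log2 fold change of -0.39 (adjusted p = 0.0190 by edgeR).

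SCARB2, the membrane receptor that carries beta-glucocerebrosidase to the lysosome, showed a similar form. In set A it had 148 ± 12.9 CPM (SD, n = 7) in non-CF and 155 ± 23.9 (SD, n = 6) in CF, and the log2 fold change was 0.08. In set B it had 166 ± 4.18 (SD, n = 5) in non-CF and 134 ± 8.14 (SD, n = 5) in CF, and the log2 fold change was -0.31 (adjusted p = 0.0312 by edgeR). The difference was -0.39 (SE 0.126, adjusted p = 0.265 by edgeR). For CTSS the difference was -0.42 (SE 0.168, adjusted p = 0.376 by edgeR), with 0.01 in set A and -0.41 in set B. In set B the 3 HET libraries had 39.3 to 43.9 CPM, the 2 WT libraries 25.7 and 28.4 and the 5 CF libraries 24.1 to 30.5. The HET libraries thus stood apart in set B. In set A the order of HET and WT was the reverse, with 24.2 to 28.9 CPM in 3 HET and 30.9 to 34.4 in 4 WT libraries.

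**Figure D4:**
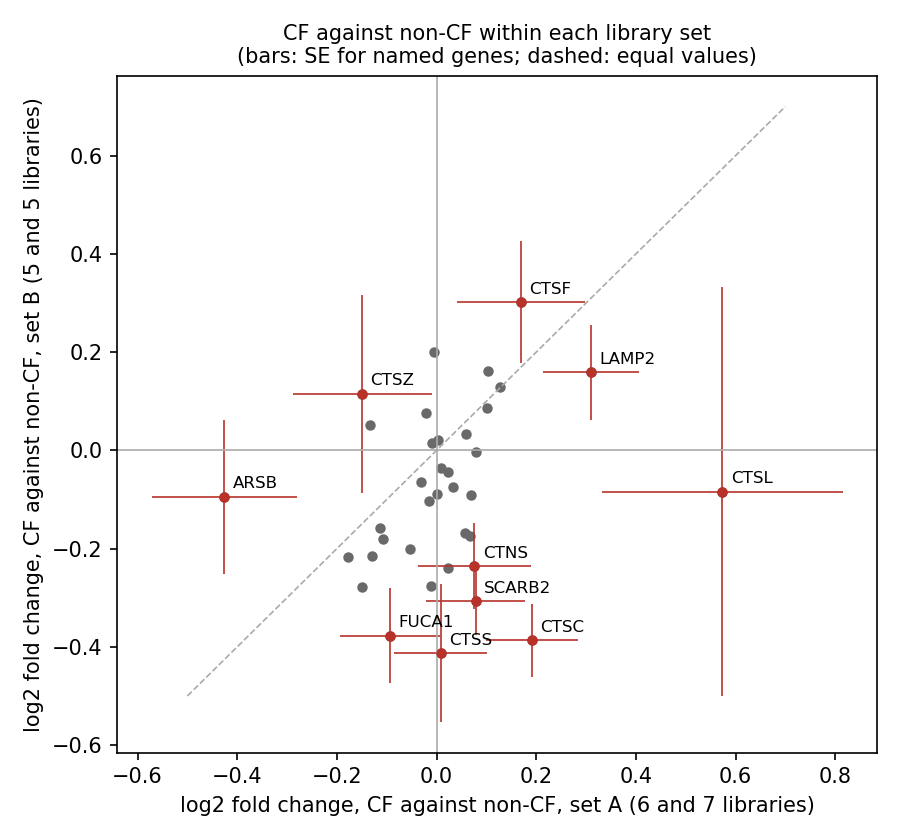
Log2 fold change of CF against non-CF in set A (6 and 7 libraries) against set B (5 and 5), 1 point a gene, with SE bars for labelled genes and a dashed line of equal values. CTSC lies at 0.19 and -0.39, SCARB2 at 0.08 and -0.31, and LAMP2 and CTSF above 0 in both sets.

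Macrophages are rich in CTSS, so it was set against the mean log2 CPM of 10 macrophage markers over the 23 libraries. Pearson's r was 0.496 (permutation p = 0.0163, adjusted over 3 relations 0.0490) and Spearman's rho 0.575 (permutation p = 0.00445, adjusted 0.0133). Without the 2 libraries farthest from the median of the markers, r was 0.540. Within set A r was 0.589 (n = 13, adjusted permutation p = 0.107) and within set B 0.567 (n = 10, adjusted permutation p = 0.266), so the relation had the same sign in both and did not pass in either. Without the 2 farthest libraries of each set, r was 0.191 in set A and 0.400 in set B, so the set A value rests on those libraries. The macrophage markers summed to 124 ± 14.8 TPM (SD, n = 6) in WT, 102 ± 11.2 (SD, n = 6) in HET and 116 ± 19.4 (SD, n = 11) in CF, from 86.3 to 153 over all libraries, and none was at 0 in all of them. Their part in the CTSS differences was not tested.

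CTSK was set in the same way against 7 stroma markers, since fibroblasts can express it. Here r was 0.284 (permutation p = 0.192, adjusted 0.192), rho 0.335 (permutation p = 0.121, adjusted 0.121), and r without the 2 farthest libraries 0.151. Within the sets r was 0.318 and 0.218, and 0.143 and -0.210 without the 2 farthest of each. On log2(TPM + 0.5) r was 0.219 and rho 0.0296 (permutation p = 0.893). The mean of the other 36 members against TFEB had r = 0.402 (permutation p = 0.0560, adjusted 0.0841) and rho 0.374 (permutation p = 0.0797, adjusted 0.120). Without the 2 libraries farthest from the TFEB median r was 0.135, so the value on log2 CPM rests on those libraries. On log2(TPM + 0.5) r was 0.288, and 0.364 without the 2 farthest. Within the sets, on log2 CPM, it was 0.362 and 0.382, and -0.106 and -0.0339 without the 2 farthest of each.

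**Figure D5:**
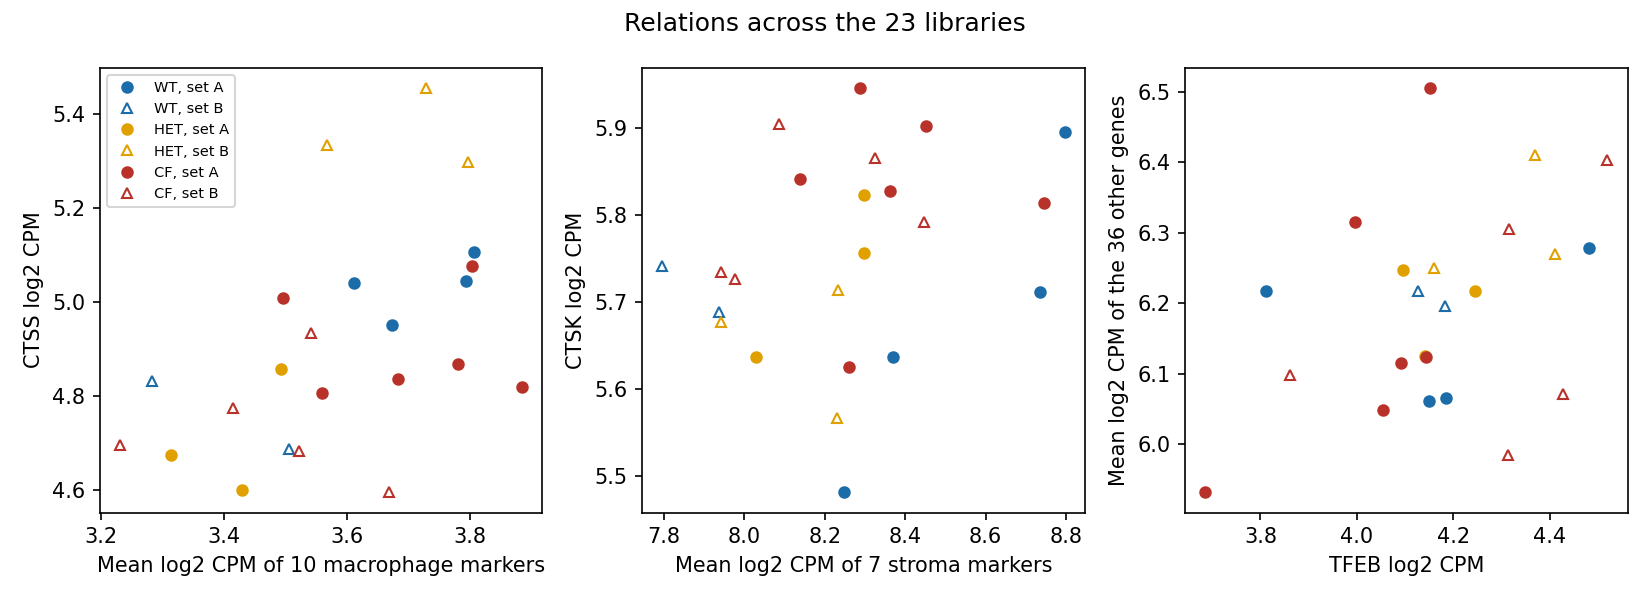
Log2 CPM of CTSS against macrophage markers, of CTSK against stroma markers and the mean of 36 lysosomal genes against TFEB, 1 point a library, coloured by label, filled circles for set A and open triangles for set B. Pearson's r is 0.496, 0.284 and 0.402.

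Other parts of the lysosomal system were read from lists written out in full. For CF against non-CF, 0 of 35 other lysosomal proteins, 0 of 23 proton pump subunits and chloride exchangers, 0 of 10 genes of mannose 6-phosphate sorting, 0 of 22 of the TFEB family and mTORC1 at the lysosome, 0 of 4 cystatins and 0 of 16 autophagy genes had an adjusted p under 0.05 by edgeR. Their medians of the log2 fold change were 0.00, -0.01, 0.01, 0.03, 0.02 and 0.03. The unadjusted p was under 0.05 for 5, 4, 2, 3, 0 and 2 of them, or 14.3, 17.4, 20, 13.6, 0 and 12.5%, against 13.7% of all genes (0.349% at the adjusted limit). The smallest p in each list belonged to TPCN1, an endolysosomal cation channel (log2 fold change 0.46, SE 0.118, adjusted p = 0.0695 by edgeR), ATP6V1C2, a proton pump subunit (-0.31, SE 0.0824, adjusted p = 0.0829 by edgeR), GNPTAB, which makes the mannose 6-phosphate tag (0.26, SE 0.0885, adjusted p = 0.175 by edgeR), FNIP1, a folliculin partner (0.20, SE 0.0548, adjusted p = 0.0918 by edgeR), CST6, a protease inhibitor (0.28, SE 0.155, adjusted p = 0.443 by edgeR), and ULK1, the kinase that starts autophagy (0.33, SE 0.115, adjusted p = 0.182 by edgeR). With DESeq2 the adjusted p was 0.0115 for TPCN1, 0.02555 for ATP6V1C2 and 0.0305 for FNIP1. By edgeR, leaving out CF pig 5 took TPCN1 under 0.05, CF pig 1 or HET pig 15 ATP6V1C2, and HET pig 19 FNIP1. Of the alternatives that left out no single library, DESeq2 among them, 3 took TPCN1 under 0.05, 4 ATP6V1C2 and 1 FNIP1. In set B alone edgeR gave an adjusted p of 0.0172 for TPCN1 (log2 fold change 0.65), 0.0221 for ATP6V1C2 (-0.42) and 0.00811 for GNPTAB (0.43, against 0.14 in set A). ULK1 had 0.13 in set A and 0.65 in set B (adjusted p = 0.0578 by edgeR).

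In these lists 1 gene passed in another comparison, CF against WT, in which 0.336% of all genes were called. MAP1LC3B, the LC3B protein of the autophagosome membrane, had 40.3 ± 2.86 CPM (SD, n = 6) in WT and 52.3 ± 5.90 (SD, n = 11) in CF. It was higher than every WT library in 10 of 11 and rose by a log2 fold change of 0.38 (SE 0.0811, adjusted p = 0.0398 by edgeR). This call was lost with the Y-linked RNA as a term (0.0548), and on leaving out any of CF pigs 2, 5, 7, 8 and 9 and WT pigs 12, 16, 17, 18 and 22, up to 0.101. In that comparison 6 of the 16 autophagy genes (37.5%) had an unadjusted p under 0.05, against 14% of all genes, and 13 of them had a value above 0. In HET against WT, 22 of 23 proton pump genes and 14 of 16 autophagy genes had a value above 0, where all genes were 10464 higher and 10970 lower. By edgeR 0 of them had an adjusted p under 0.05, and 3 of 23 (13.04%) and 5 of 16 (31.25%) had an unadjusted p under 0.05, against 8% of all genes.

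In the lists of markers of kidney and other cells, 0 genes had an adjusted p under 0.05 by edgeR in any comparison of labels over all libraries. Of the markers named here, some passed for CF against non-CF in set B alone, with adjusted p of 0.00575 for CALB1 (log2 fold change -2.29, against -0.50 in set A), 0.0215 for SLC12A3, 0.0346 for SLC12A1, 0.0212 for AQP3 (-0.60, against 0.12 in set A) and 0.0240 for KDR (-0.48, against -0.07 in set A), all by edgeR. The 4 markers of distal segments (UMOD, SLC12A1, SLC12A3 and CALB1) summed to 762 ± 127 TPM (SD, n = 6) in WT, 718 ± 237 (SD, n = 6) in HET and 531 ± 58.9 (SD, n = 11) in CF, from 407 to 1101 over all libraries. For CF against non-CF an unadjusted p under 0.05 was found for 3 of the 4, against 13.7% of all genes, and for CF against WT for 4 of the 4, against 14%. The 4 did not share a direction. For CF against WT, the log2 fold changes were -1.38 for CALB1 (SE 0.405, adjusted p = 0.110 by edgeR), -0.77 for SLC12A3 (SE 0.202, adjusted p = 0.0780 by edgeR) and -0.325 for SLC12A1 (SE 0.0977, adjusted p = 0.115 by edgeR), but 0.52 for UMOD (SE 0.2235, adjusted p = 0.291 by edgeR). For CF against non-CF the adjusted p of CALB1 was 0.06355 by edgeR, and it came under 0.05 without CF pig 2, CF pig 4, HET pig 13 or HET pig 15 (down to 0.0349), as did SLC12A3 (0.0274) and SLC12A1 (0.0346) without HET pig 13. DESeq2 gave an adjusted p of 0.0115 for CALB1, 0.0155 for SLC12A3 and 0.0343 for SLC12A1 there, and of 0.0151 for SLC12A3 in CF against WT. The 9 proximal tubule markers summed to 2277 ± 393, 2343 ± 507 and 2351 ± 406 TPM, from 1669 to 3225. The ranges over all libraries were 80.0 to 205 for the collecting duct, 170 to 355 for podocytes, 716 to 1681 for stroma, 118 to 183 for endothelium and 190 to 1037 TPM for erythroid markers. The smallest p for CF against non-CF in each of the other marker lists belonged to CUBN (log2 fold change 0.24, adjusted p = 0.198 by edgeR), AQP3 (-0.20, 0.607), SYNPO (0.49, 0.189), AIF1 (-0.30, 0.338), PDGFRB (0.20, 0.441), KDR (-0.26, 0.149) and RHAG (-0.41, 0.0851, and 0.0295 by DESeq2). No marker of these lists was at 0 in all libraries. Their part in the members' values was not tested.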

How the data were processed

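The authors pseudoaligned total RNA reads with kallisto to RefSeq transcripts of Sscrofa11.1. The estimated counts they deposited are not normalized, and the TPM they deposited are those counts per effective length, with the same total in every library. The deposited transcript table (other than measurements) gave each transcript's gene symbol. Replicates were not pooled. No aggregated value of the authors was used.

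Estimated counts of 77689 transcripts were summed per symbol and rounded (63.0% were not whole). edgeR 4.0.16 (limma 3.58.1, R 4.3.3) was run with TMM normalization, filterByExpr, the quasi-likelihood test and Benjamini-Hochberg adjustment over all genes tested, with 0.05 as the limit. CPM use TMM library sizes, and log2 CPM a prior count of 2. CF against non-CF used 2 groups, and the other comparisons a fit of 3 labels. Library sets lie on either side of the widest gap (0.306, the next 0.168) on the second scaling axis (10.6% of variance, the first 17.2%). Relations used permutation tests with 100000 resamples. On simulated data for CF against non-CF (20921 genes, 200 changed) edgeR recovered 93% at a log2 fold change of 1 and 98% at 2, with 4% false calls, and DESeq2 1.42.0 93% and 98% with 12.4% false calls. For CF against WT edgeR recovered 84% and 99% with 4.2% false calls, and for CF against HET 89% and 99% with 7.4%. Smaller changes were not simulated, while the members' values for CF against non-CF ran from -0.26 to 0.24. The simulated counts held no library sets and no Y-linked differences.

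The members and lists were chosen with earlier results of these data known. Genes were named by rule. These were the 5 members with the smallest p for CF against non-CF, the 3 with the smallest p in each other comparison of labels, the 5 highest and 3 lowest by TPM, the 3 most variable by CPM, TFEB, LAMP1, LAMP2, CTSK, CTSS, members and list genes with an adjusted p under 0.05, the leading gene of each list, and CFTR. Alternatives covered DESeq2, 2 other scalings, 2 other filters, the library set or Y-linked RNA as a term, each set alone, an exact Mann-Whitney U test (the study's methods name the Mann-Whitney U test), log2(TPM + 0.5) in place of log2 CPM for relations, and each library left out in turn. The p-values measure the spread between pigs taken as independent. Litter is not in the labels and was not modelled. Library set and Y-linked RNA entered the comparisons of labels only as alternatives. Sequence was read from the Sscrofa11.1 genome and RefSeq annotation with Python 3.11.15 and pysam 0.24.0, using numpy 2.4.6, scipy 1.17.1, pandas 2.3.3 and matplotlib 3.10.9. The number of columns of samples outside this series was 0.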

Additional observations from a re-analysis of the deposited data

Results flagged for a closer look

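In groups of 4 to 10 libraries the highest or lowest value of a member was checked against the rest by Dixon's criterion, over 74 groups, of which chance marks about 1 in 20. CTSL in WT pig 22 had 53.55 CPM, where the other WT libraries had 6.18 to 21.6. GRN in HET pig 21 had 327.1 CPM, where the other HET libraries had 217 to 254.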

How the results depend on the processing

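The count of members called for CF against WT, 0 of 37, became 1 (LAMP2) with the 1 CPM filter, the library set as a term or upper-quartile scaling, and 2 (LAMP2 and CTSF) with DESeq2. Leaving out single libraries gave between 0 and 1. For CF against non-CF it became 2 (CTSC and SCARB2) in set B alone and stayed 0 otherwise. HET against WT and CF against HET gave 0 under every alternative run. Over all genes, CF against non-CF gave 73 calls, against 488 with DESeq2, 150 with the 1 CPM filter, 148 with the library set as a term, 473 in set B alone, 0 in set A alone (1958 at an unadjusted p under 0.05) and 45 with the exact Mann-Whitney U test, under which 0 members passed (smallest adjusted p 0.165, 4 at an unadjusted p under 0.05, against 11.8% of all genes). Each library left out gave between 17 (HET pig 21) and 203 (CF pig 4), with a fall of over 1.5 times also without WT pigs 12, 16, 17, 18 or 22, HET pigs 14 or 20 or CF pigs 6, 7, 8 or 9, and a rise without HET pigs 13 or 15 or CF pig 2. CF against WT gave 72, against 573, 140, 172 and, with upper-quartile scaling, 139. It was 20 without WT pig 12 and 187 without WT pig 23, and lower by over 1.5 times also without WT pigs 16, 17, 18 or 22 or CF pigs 2, 3, 5, 7, 8 or 9, and higher without CF pig 4. HET against WT gave 1 against 32 with DESeq2.

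The log2 fold change for CF against non-CF differed in sign from that over all libraries for 14 of 37 members in set A and 5 in set B. In set A these were CTSC (0.1908), CTSS (0.008), SCARB2 (0.0783), NPC1 (0.0698), GRN (0.001), GLA (0.0228), CTSA, NEU1, GALNS, IDUA, MAN2B1, ASAH1, CTNS and PPT1, and in set B CTSL (-0.0844), TFEB (0.0514), CTSZ (0.1155), GLB1 and TPP1. The marker AQP3 was 0.1232 in set A. ARSA was -0.0153 with upper-quartile scaling. Leaving out single libraries gave -0.0424 to 0.0491 for ARSA, -0.0288 to 0.0864 for MANBA, -0.0531 to 0.018 for NPC1 and -0.1352 to 0.0022 for GRN. It gave 0.0136 to 0.1208 for LAMP1, -0.0868 to -0.0098 for TFEB, -0.1218 to -0.0312 for CTSC and -0.3451 to -0.1505 for AQP3. CST6 lay between 0.0485 and 0.3877 over all alternatives. For CF against HET, leaving out single libraries gave -0.3261 to -0.1531 for CTSS. For HET against WT, CTSZ lay between 0.2107 and 0.4443 over all alternatives. The summed TPM became 5806 (WT), 5964 (HET) and 5725 (CF) without the 10 highest genes, as the rest is then scaled up. The relation of CTSS with macrophage markers did not pass within set A (0.589) or set B (0.567), which hold fewer libraries (0.191 and 0.400 without the 2 farthest of each), and was 0.705 on log2(TPM + 0.5). No paired analysis was possible because the labels share no replicate numbers between groups. For other changes the cause was not tested.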
